A study of Rattus norvegicus with 6 samples.

Results

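The genes described here encode subunits of the ionotropic and metabotropic receptors for glutamate, GABA, glycine and acetylcholine. They were chosen by gene symbol alone, as every probe set of the array with 1 symbol of the families Gria, Grin, Grik, Grm, Gabr, Gabbr, Glra, Glrb and Chrn, and the probe set with the highest mean over the 6 arrays stood for its gene. This gave 61 genes (94 probe sets) of the 14217 genes with 1 symbol: 23 for glutamate, 18 for GABA, 4 for glycine and 16 for acetylcholine. The RNA came from retinal ganglion cells of 3 adult male Brown Norway rats, laser-captured at 2000 cells per eye after Fluorogold had been carried back to them from the superior colliculus on both sides. Pressure had been raised for 10 days in 1 eye of each rat by hypertonic saline in an episcleral vein, a model of glaucoma, and the other eye was left as its control. The 2 groups are the OS (left) eyes and the OD (right) eyes, n = 3 arrays each, 1 from each rat. The labels do not say which eye had raised pressure, so a difference of OS from OD has no direction with respect to pressure, and effects of pressure partly cancel if the treated side varied.

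Retinal ganglion cells send the output of the retina to the brain. They are excited by glutamate from bipolar cells, through AMPA and NMDA receptors, and inhibited by amacrine cells, through GABA and glycine receptors, while acetylcholine reaches them from starburst amacrine cells through nicotinic receptors. Ionotropic receptors are ion channels built of several subunits from different genes, and metabotropic glutamate receptors and GABA-B receptors act through G proteins. Excess activation of NMDA receptors is a long-studied route of ganglion cell injury.

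Values are intensities on a linear scale, 1 per probe set, and levels of different probe sets are not compared with each other. Values of an eye are always listed for rats 1, 2 and 3 in that order. The background limit of an array was the 95th percentile of its 27 probe sets for Bacillus subtilis RNAs, which reached at most 800.0 on any array. These RNAs were taken as not added to the samples, which was not tested. The limit lay between 399.6 and 546.6 on OS arrays and between 260.5 and 590.8 on OD arrays. Of the 11 ganglion cell markers measured, 10 exceeded the limit on at least 4 arrays, and Thy1, Nefm, Nefh, Rbpms, Slc17a6 and Gap43 did so on all 6. Pou4f1 exceeded it on 1 of 3 OS and 3 of 3 OD arrays. Genes listed as markers of other retinal cells also exceeded it on all 6 arrays. These were 4 of 11 for amacrine cells (Calb2, Gad1, Pax6 and Tfap2b) and 2 of 7 for bipolar cells (Otx2 and Pcp2). They were 3 of 8 for photoreceptors and 4 of 8 for Mueller glia and astrocytes, but 0 of 4 for horizontal cells and 0 of 8 for microglia. Whether ganglion cells also express such genes was not tested.

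Most receptor genes lay near or below background. Only Grin1 and Grin2c, both NMDA receptor subunits, exceeded the limit on all 6 arrays, 2 of 61 genes (3.28%), against 15.7% of all genes. On at least 4 arrays it was exceeded by 22 of 61 (36.1%), against 45.2% of all genes. These 22 comprised 10 of 23 glutamate, 8 of 18 GABA, 1 of 4 glycine and 3 of 16 acetylcholine receptor genes. The arrays had 29, 18 and 26 receptor genes above the limit in OS of rats 1, 2 and 3, against 35, 23 and 32 in OD. Each OS array thus had fewer than the OD array of its rat, and all genes ran the same way in rats 1 and 3 (53.0% in OS against 65.6% in OD, and 54.1% against 61.9%) and nearly level in rat 2 (40.8% against 41.1%).

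**Figure D1:**
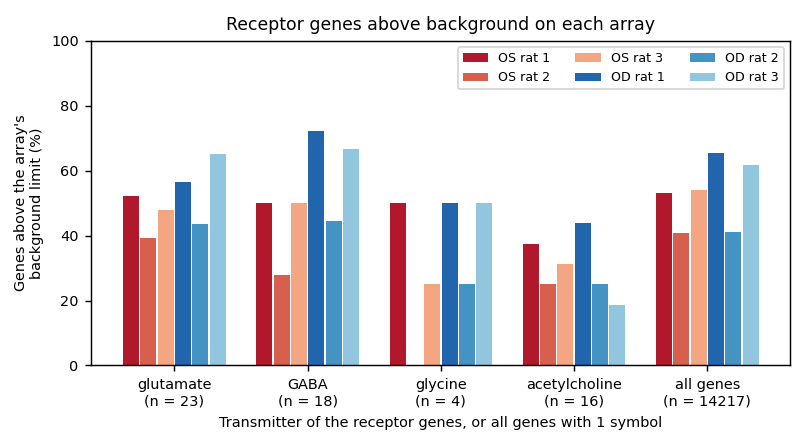
Share of genes (percent, y axis) above the background limit of each array, for receptor genes of 4 transmitters and for all genes with 1 symbol (x axis), with 1 bar per array, OS arrays in red shades and OD arrays in blue. Rat 2 had the lowest share of all genes in both eyes, 40.8% in OS and 41.1% in OD, and 0 of 4 glycine receptor genes exceeded the limit on its OS array.

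Differences between the eyes were tested for the 32 receptor genes whose mean signal reached the middle of the probe sets' range. None passed (limma with rat as a block, Benjamini-Hochberg adjusted over 15521 probe sets, smallest adjusted p = 0.590), where 0.0129% of all probe sets did. At an unadjusted p under 0.05 there were 2 of 32 (6.25%), Gabbr2 lower and Chrna2 higher in OS, against 6.91% of all probe sets and 6.94% of all genes tested, so this share was at the background. Means were lower in OS for 22 and higher for 10 genes, against 4612 lower and 3982 higher of all 8594 genes tested. The median log2 difference, OS minus OD, was -0.26 over the 32, against -0.07 over all genes tested. The medians in rats 1, 2 and 3 were 0.03, -0.69 and -0.57 for receptor genes and -0.11, -0.05 and 0.01 for all genes. Without rat 3 the receptor median was 0.06 and without rat 1 it was -0.63, so neither its size nor its sign was stable.

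By transmitter, the median difference was -0.09 over 13 glutamate receptor genes, -0.40 over 12 GABA receptor genes and 0.51 over 6 nicotinic genes. Glrb was the only glycine receptor gene tested. Lower in OS in 3 of 3 rats were 7 of 32 (21.9%, against 15.6% of all genes tested): Grin1, Gria2, Grik2, Grm4, Gabbr2, Gabrb2 and Gabrd. Higher in 3 of 3 were 4 of 32 (12.5%, against 13.1%): Chrna2, Chrnb1, Gabra6 and Gabrq. The eyes did not overlap for 3 genes with OS below OD (9.38%, against 5.7% of all genes tested) and for 4 with OS above OD (12.5%, against 4.79%). Chrna2, Chrnb1 and Gabra6, of these 4, passed the brightness filter only through OS, with mean log2 signals of 9.38, 8.83 and 9.36 against 6.99, 7.49 and 7.74 in OD. Grik2, of the 3, passed it only through OD, at 9.68 against 7.88. These counts therefore depend on the filter. In captured cells pooled per eye, fewer cells of a type and less RNA per cell cannot be told apart.

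**Figure D2:**
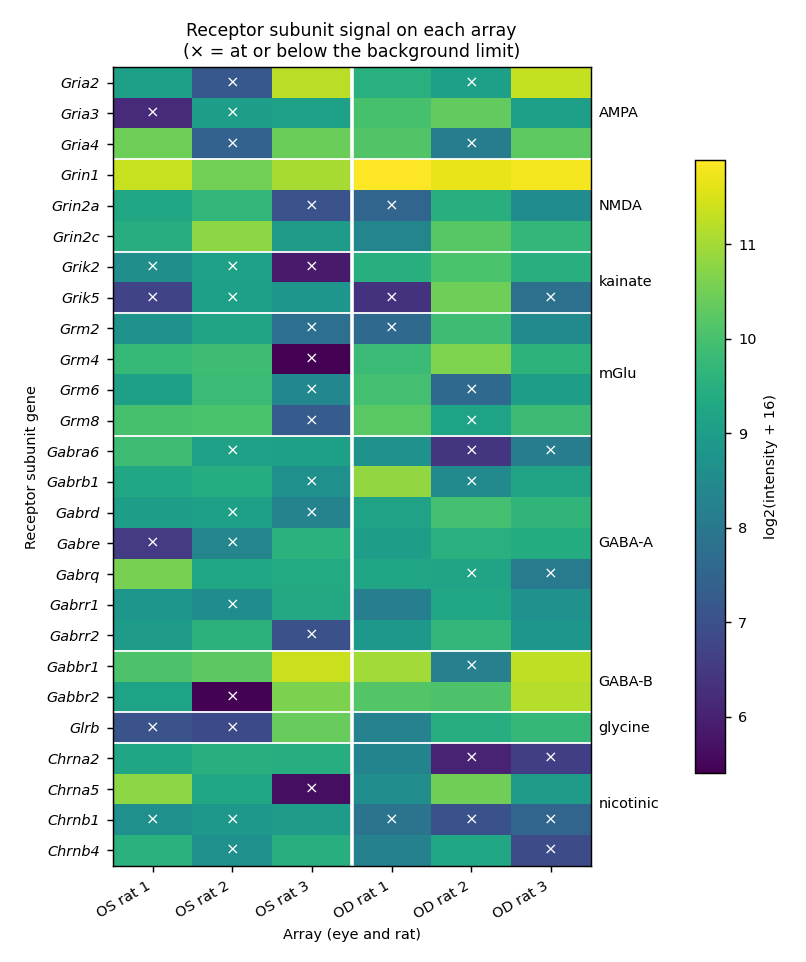
Signal of the 26 named receptor genes as log2(intensity + 16) (colour), with genes as rows grouped by receptor and arrays as columns, OS arrays to the left of the white line and OD arrays to its right. A cross marks a value at or below the array's background limit. Grin1 and Grin2c are the only rows with no cross.

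Promoter windows from RefSeq (build GRCr8), 250 bases before to 50 after the gene's start, were found for 46 of the 61 genes. Windows of 4 genes whose eyes did not overlap are printed as examples. Grin1 and Grik2 had OS below OD, and Gabrq and Chrnb1 had OS above OD. No difference between their eyes passed the test. Capitals mark the GC box GGGCGG bound by Sp1 and the TATA motif TATAAA, each searched on both strands. Among such genes not printed, Gabrd (OS below OD) held 40 CpG dinucleotides and 4 GC boxes. Gabra6 (OS above OD) held 0 of both.
Grin1, chr3:28528705-28529004, minus strand: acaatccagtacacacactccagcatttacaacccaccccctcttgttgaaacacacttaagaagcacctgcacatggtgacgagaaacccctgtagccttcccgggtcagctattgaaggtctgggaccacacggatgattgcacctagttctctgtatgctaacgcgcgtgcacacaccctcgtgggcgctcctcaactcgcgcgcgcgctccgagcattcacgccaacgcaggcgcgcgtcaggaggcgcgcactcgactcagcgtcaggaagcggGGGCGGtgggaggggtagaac
Grik2, chr20:54415234-54415533, minus strand: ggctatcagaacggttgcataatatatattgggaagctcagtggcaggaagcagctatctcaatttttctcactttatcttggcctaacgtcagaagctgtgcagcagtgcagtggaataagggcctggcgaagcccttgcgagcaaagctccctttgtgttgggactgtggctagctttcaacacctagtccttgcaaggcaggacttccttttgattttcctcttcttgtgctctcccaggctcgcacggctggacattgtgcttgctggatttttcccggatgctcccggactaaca
Gabrq, chrX:155738186-155738485, plus strand: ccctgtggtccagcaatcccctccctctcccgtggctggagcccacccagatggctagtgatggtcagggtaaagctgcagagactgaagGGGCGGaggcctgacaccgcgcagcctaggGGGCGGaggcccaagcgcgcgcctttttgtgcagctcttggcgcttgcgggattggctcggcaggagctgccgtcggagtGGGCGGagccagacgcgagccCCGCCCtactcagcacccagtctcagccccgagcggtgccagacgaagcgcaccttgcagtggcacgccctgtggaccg
Chrnb1, chr10:55015058-55015357, minus strand: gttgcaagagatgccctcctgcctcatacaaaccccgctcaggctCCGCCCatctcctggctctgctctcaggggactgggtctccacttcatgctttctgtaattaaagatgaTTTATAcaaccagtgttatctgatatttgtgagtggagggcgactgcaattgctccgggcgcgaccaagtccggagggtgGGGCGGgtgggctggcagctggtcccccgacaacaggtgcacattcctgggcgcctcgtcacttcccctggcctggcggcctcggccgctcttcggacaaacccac

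Over the 46 receptor windows, 22 (47.8%) had a GC box and 4 (8.70%) a TATA motif, against 34.9% and 14.3% of the windows of 27457 genes and 57.5% and 8.45% of those of 11700 genes on the array. The cyclic AMP response element TGACGTCA was in 0 of 46, against 1.91% of all windows and 2.85% of those of genes on the array. The median number of CpG dinucleotides was 19 in the 16 windows of genes above the limit on at least 4 arrays and 9 in the other 30. It was 7 over all windows and 19 over those of genes on the array. These counts describe the letters in the windows and were not tested.

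Among NMDA receptor genes, Grin1 encodes the subunit that every NMDA receptor contains. Its brightest probe set, 1389900_at, gave 2565, 1451 and 2072 in OS, against 3771, 3251 and 3515 in OD. All 3 OS values lay below all 3 OD values, all 6 were above the limit, and the within-rat differences of -0.55, -1.15 and -0.76 were close together. The mean log2 difference was -0.82 ± 0.31 (SD, n = 3 rats, limma adjusted p = 0.744, 95% interval -1.73 to 0.09), which corresponds to 0.566-fold. The second probe set of Grin1, 1368572_a_at, was also above the limit on all 6 arrays and gave 1699, 2702 and 1209.6 in OS, against 1603, 1533 and 1207 in OD. Its eyes overlapped and its difference was 0.30 ± 0.45 (limma adjusted p = 0.92), so the 2 probe sets of this gene disagreed in direction. The promoter window of Grin1 held 25 CpG and 1 GC box.

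Grin2c, one of the glutamate-binding subunits, gave 687, 1745 and 479.9 in OS, against 319.9, 1167 and 819.9 in OD. Both arrays of rat 2 were above the other 4, and the eyes overlapped, at 0.30 ± 0.94 (adjusted p = 0.941). Grin2a, the glutamate-binding subunit of many mature synapses, gave 609, 820.4 and 118 in OS, against 169, 711 and 353 in OD. Its differences went different ways, 1.76, 0.20 and -1.46 in rats 1, 2 and 3, and only 2 of 3 arrays of each eye exceeded the limit. Of its other 2 tested probe sets, 1380861_at had 0.08 ± 1.75 and 1368985_at had 1.79 ± 1.32 (adjusted p = 0.796). The second had all OS values above all OD values and 3 of its 6 values above the limit. It passed the brightness filter only through OS, with mean log2 signals of 9.08 in OS and 7.29 in OD. The remaining tested gene of this group, Grin3b, had -0.06 ± 1.86. Grin2b, Grin2d and Grin3a were too dim to test.

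AMPA receptors carry the fast excitatory current, and Gria2 encodes the subunit that limits their calcium permeability. Gria2 (1368401_at) gave 523, 130.3 and 2351 in OS, against 714, 524 and 2556 in OD. On this probe set the large contrast was between animals. Both arrays of rat 3 were far above the other 4, while the within-rat differences were -0.44, -1.89 and -0.12. The mean difference between eyes was -0.81 ± 0.94 (adjusted p = 0.827). The second tested probe set of Gria2, 1387171_at, gave 141.4, 503.4 and 457.3 in OS, against 485.9, 113.3 and 971.7 in OD. Rat 3 did not stand apart on it, and its difference was -0.24 ± 1.97. Gria4 (1396696_at) gave 1383, 159.6 and 1363 in OS, against 1108, 265 and 1220.4 in OD, with both arrays of rat 2 lowest and a difference between eyes of -0.07 ± 0.53 (adjusted p = 0.99). Gria1 was too dim to test.

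Gria3 was lower in OS by both of its probe sets on average. Its tested probe set passed the brightness filter only through OD, with mean log2 signals of 8.11 in OS and 9.80 in OD. The brighter one, 1376892_at, gave 56.5, 509.7 and 539 in OS, against 1007, 1277 and 524 in OD, so the OS array of rat 3 exceeded its OD array slightly and the eyes overlapped, at -1.69 ± 1.96 (adjusted p = 0.735; -0.63 without rat 1). Its dimmer probe set, 1368691_at, fell below the brightness filter and gave 71.5, 30.2 and 64.3 in OS, against 514, 926 and 794 in OD. It lay below the limit on 3 of 3 OS arrays and above it on 3 of 3 OD arrays. Set against the OS limits instead of the OS values, which give only a bound, the mean OD signal on these arrays was at least 1.60-fold higher. When all 31042 probe sets were tested it had the smallest p of the 94 receptor probe sets, at -3.43 ± 0.88 in 3 of 3 rats, and did not pass (limma adjusted p = 0.590, unadjusted p = 0.00567). This probe set was singled out after its values were seen. Above the limit on all OD and no OS arrays were 3 of 94 receptor probe sets (3.19%), in Gria3, Grik2 and Gabrb2, against 0.963% of all probe sets, and the reverse held for 0 of 94, against 0.222%.

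**Figure D3:**
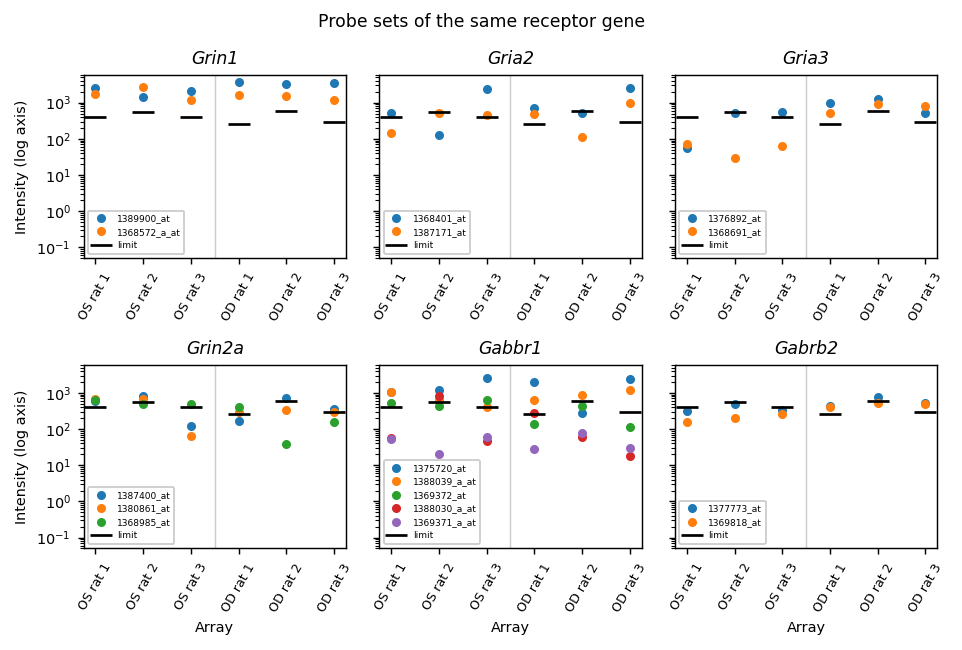
Intensity (log axis) of every probe set of 6 receptor genes on each array, OS arrays left and OD arrays right of the grey line, with 1 colour per probe set and a black bar at each array's background limit. For Grin1 both probe sets lie above the limit on all 6 arrays, and for Gria3 the dimmer probe set lies below the limit on the 3 OS arrays and above it on the 3 OD arrays.

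Kainate receptor genes were near background. Grik2, a channel-forming kainate subunit, gave 384, 542 and 42.8 in OS, against 698, 1039 and 709.6 in OD. All OS values were below all OD values, and 0 of 3 OS and 3 of 3 OD arrays exceeded the limit. Set against the OS limits instead of the OS values, the mean OD signal on these arrays was at least 1.77-fold higher. The measured difference was -1.79 ± 1.59 (limma adjusted p = 0.73) and -0.88 without rat 3. The limma interval of this difference, -3.66 to 0.07, included 0, so a difference between the eyes was not established. The promoter window of Grik2 held 8 CpG and neither motif. Grik5, an accessory kainate subunit, gave 89.4, 523 and 436 in OS, against 65.7, 1386 and 208 in OD, with opposite signs in different rats (0.37, -1.38 and 1.01) and a mean near 0. Grik1, Grik3 and Grik4 were too dim to test.

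Metabotropic glutamate receptors include Grm6, the receptor by which ON bipolar cells sense photoreceptor glutamate and therefore also a marker of those cells. Grm6 (1387989_at) gave 525, 893 and 328 in OS, against 977, 179.7 and 508 in OD, with overlapping eyes and differences of -0.88, 2.22 and -0.61 in rats 1, 2 and 3 (adjusted p = 0.964). Its other 2 probe sets exceeded the limit on 1 and 0 of 6 arrays. Grm4, an inhibitory presynaptic receptor, gave 849.8, 919.5 and 26.5 in OS, against 883, 1564 and 756 in OD. Its mean difference of -1.66 ± 2.21 (adjusted p = 0.73) rested on the OS array of rat 3, without which rat the mean was -0.41.

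Grm8, of the same presynaptic class, gave 1007, 1053 and 140.0 in OS, against 1188, 558 and 903 in OD. This array, OS of rat 3, was again the lowest, and the differences went different ways (-0.24, 0.90 and -2.56, adjusted p = 0.88). A second tested probe set of Grm8 was higher in OS in 3 of 3 rats, at 1.41 ± 0.35. However, only 1 of its 6 values exceeded the limit. That probe set passed the brightness filter only through OS, with mean log2 signals of 8.94 in OS and 7.53 in OD. Grm2 gave 406, 574 and 202 in OS, against 179.9, 918 and 339.5 in OD, at -0.09 ± 1.03 (adjusted p = 0.99). Grm3, Grm5 and Grm7 were too dim to test.

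GABA-B receptors need both of their subunits, Gabbr1, which binds GABA, and Gabbr2, which couples to the G protein. Gabbr2 (1387383_at) gave 564, 27.9 and 1548 in OS, against 1114, 1070.1 and 2282 in OD. It was lower in OS in 3 of 3 rats, at -2.05 ± 2.24 (adjusted p = 0.59), but rat 2, whose OS array lay below the limit, made up most of this, and without rat 2 the mean was -0.76. Gabbr1 (1375720_at) gave 1060.2, 1207 and 2613 in OS, against 2000.5, 282 and 2428 in OD, at 0.41 ± 1.49 (adjusted p = 0.904). Here rat 2 ran the other way, with its OD array below the limit. Gabbr1 had 3 tested probe sets, at 0.41, -0.43 and 1.39, so they disagreed in direction. The last passed the brightness filter only through OS, with mean log2 signals of 9.08 in OS and 7.69 in OD.

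GABA-A receptors are chloride channels. Gabrd, the delta subunit of receptors outside synapses, gave 500.1, 533 and 299 in OS, against 551, 969.6 and 780.5 in OD. All OS values were below all OD values, at -0.77 ± 0.60 (adjusted p = 0.855), and 1 of 3 OS and 3 of 3 OD arrays exceeded the limit. Gabrb2, a beta subunit named here after its values were seen, gave 308, 482 and 336 in OS, against 422, 789 and 538 in OD, with the smallest SD between rats of the 32 genes tested (-0.60 ± 0.14, adjusted p = 0.899). It exceeded the limit on 0 of 3 OS and 3 of 3 OD arrays. Set against the OS limits instead of the OS values, the mean OD signal on these arrays was at least 1.25-fold higher. The limma interval for Gabrb2, -2.29 to 1.10, included 0, so a difference between the eyes was not established for this gene. Its second tested probe set, 1369818_at, was lower in OS in 3 of 3 rats too, at -1.17 ± 0.20 (adjusted p = 0.843). That probe set passed the brightness filter only through OD, with mean log2 signals of 7.77 in OS and 8.94 in OD.

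Gabra6 and Gabrq ran the other way. Gabra6, an alpha subunit best known from cerebellar granule cells, gave 918, 543 and 534 in OS, against 402, 67.3 and 267 in OD. Its OS values were all above its OD values, at 1.62 ± 0.98 (adjusted p = 0.781), with 2 of 3 OS and 1 of 3 OD arrays above the limit. Gabrq, the theta subunit, gave 1486, 606 and 643 in OS, against 592, 569 and 259.7 in OD. All OS values exceeded all OD values, at 0.88 ± 0.69 (adjusted p = 0.826), although rat 2 differed by only 0.09. The Gabrq promoter window held 23 CpG and 4 GC boxes.

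Of the other named GABA-A genes, Gabre, the epsilon subunit, gave 77.6, 314 and 734 in OS, against 505, 723 and 652 in OD (-1.16 ± 1.32, adjusted p = 0.814). Gabrb1, a beta subunit, gave 614, 664 and 389.9 in OS, against 1812, 341 and 566 in OD (-0.38 ± 1.24, adjusted p = 0.934). In both genes the eyes overlapped and 1 rat went against the other 2. The rho subunits form GABA-gated channels known mainly from bipolar cells. Gabrr1 gave 437, 363 and 621 in OS, against 274, 604 and 398 in OD, and Gabrr2 gave 484, 751 and 113 in OS, against 447, 810.1 and 434 in OD. Their differences of 0.19 ± 0.77 and -0.60 ± 1.05 (adjusted p = 0.974 and 0.905) were smaller than their spread between rats. The tested genes Gabra5 and Gabrr3 had -0.37 ± 2.76 and -0.42 ± 0.92.

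Glrb encodes the beta subunit that anchors glycine receptors at synapses. It gave 118, 101 and 1309 in OS, against 294, 678 and 823 in OD. In rats 1 and 2 the OS arrays lay below the limit and in rat 3 the OS array was the highest of the 6, at -1.04 ± 1.62 (adjusted p = 0.85). The alpha subunits Glra1, Glra2 and Glra3 were too dim to test.

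Nicotinic receptors are cation channels opened by acetylcholine. Chrna2, a neuronal alpha subunit, gave 579, 708 and 676 in OS, against 306, 49.5 and 82 in OD. The OS arrays were close together and all above the limit, and 1 of 3 OD arrays exceeded it, at 2.39 ± 1.34 (3 of 3 rats, adjusted p = 0.717, unadjusted p = 0.0455). The OD values of rats 2 and 3 were below their limits, so the size of this difference is not well measured. Chrnb1, best known as the beta subunit of muscle, gave 386, 446 and 487 in OS, against 224, 115 and 168 in OD. Its eyes did not overlap (1.34 ± 0.54, adjusted p = 0.833), but only 1 of 3 OS and 0 of 3 OD arrays exceeded the limit, so most of these values lay at background. The Chrnb1 promoter window held 15 CpG, 2 GC boxes and 1 TATA motif.

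Chrna5, an accessory alpha subunit, gave 1759.8, 599 and 34.2 in OS, against 365, 1403 and 497 in OD, with differences of 2.22, -1.21 and -3.35 in rats 1, 2 and 3 (adjusted p = 0.884). Chrnb4, a neuronal beta subunit, gave 728, 388 and 709 in OS, against 288, 599 and 104 in OD (1.09 ± 1.61, adjusted p = 0.836). In neither gene did the 3 rats run the same way. The tested genes Chrna7 and Chrnb2 had -0.15 ± 2.20 and -0.07 ± 1.77, and each went different ways in different rats. The other 10 nicotinic genes were too dim to test.

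**Figure D4:**
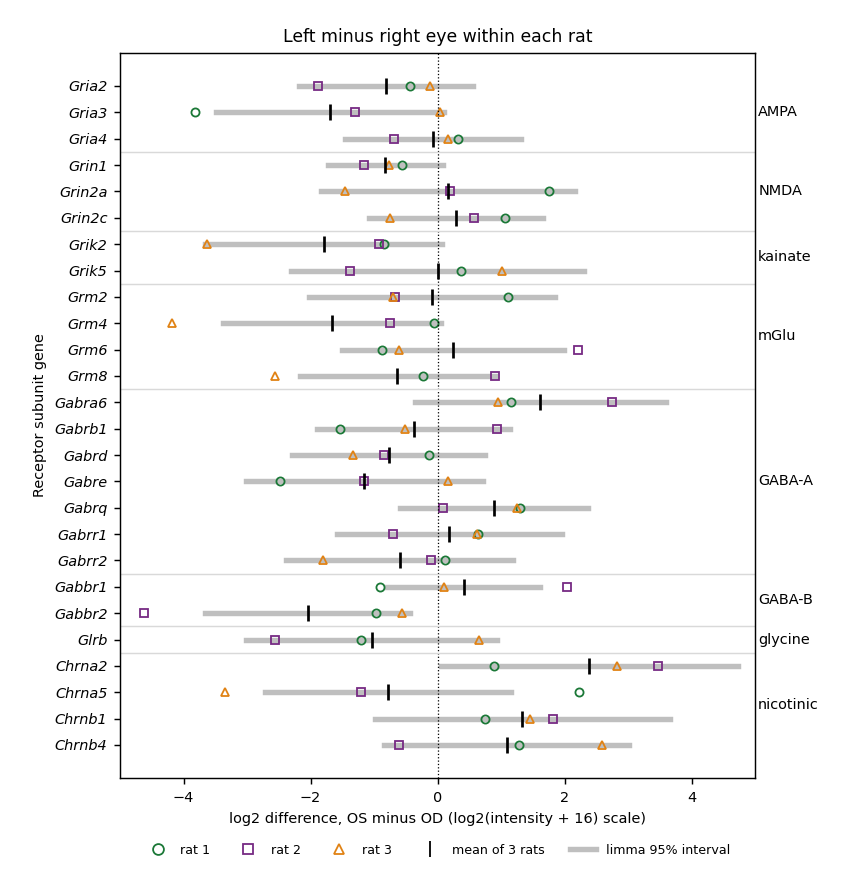
Log2 difference of OS minus OD (x axis) for the 26 named receptor genes (y axis, grouped by receptor), with 1 symbol per rat, a black tick for the mean of 3 rats and a grey bar for limma's 95% interval. The intervals of 24 genes include 0, those of Gabbr2 and Chrna2 do not, and no gene passed after adjustment.

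The 29 receptor genes too dim to test divided into 6 that exceeded the limit on no array (Chrna3, Chrna9, Chrnb3, Gabra4, Glra3 and Grm3) and 23 that did so on 1 to 3. Their means were lower in OS for 13 and higher for 16. Chrnd, a muscle receptor subunit, was higher in OS in 3 of 3 rats (802, 592 and 252 in OS, against 108, 258 and 41.9 in OD), with 2 of 3 OS and 0 of 3 OD arrays above the limit. It was picked after its values were seen.

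Among 24 receptor genes with several probe sets, the mean differences had 1 sign in 13 and mixed signs in 11. Of the 6 genes with more than 1 tested probe set, Gria2, Grin2a and Gabrb2 had 1 sign and Grin1, Gabbr1 and Grm8 had mixed signs. In Grin2a, Gabrb2, Gabbr1 and Grm8, a tested probe set passed the brightness filter through only 1 eye.

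The same fit was used to ask whether levels differed between the 3 rats, adjusting for eye. No receptor gene passed (limma moderated F test, smallest adjusted p = 0.0886, for Gria2), against 2.51% of all probe sets and 1.29% of all genes tested. At an unadjusted p under 0.05 there were 5 of 32 (15.6%), against 10.9% of all genes tested: Gria2, Gria4, Gabbr2, Gabbr1 and Grm4, with adjusted p of 0.0886, 0.136, 0.193, 0.287 and 0.297. These are values of the brightest probe sets. By the same F test, the second tested probe set of Gria2 had an adjusted p of 0.809. The other tested probe sets of Gabbr1, 1388039_a_at and 1369372_at, had 0.990 and 0.951. Gria2, Gabbr1, Gabbr2 and Glrb were higher on both arrays of rat 3 than on the other 4, and Grm4, Gabrr2 and Chrnb2 were lower on both (9.38% of the 32, against 8.69% of all genes tested). In rat 2, 6 genes were above the other arrays on both eyes (Grin2c, Grin2a, Grm2, Grm4, Gabrr2 and Grik5) and Gria4 was below (3.12%, against 8.61%), so that rat 3 stood highest for 12.5% of the 32 genes and rat 2 for 18.8%, against 12.5% and 7.56% of all genes tested. In rat 1, 0 genes were above, against 4.1773% of all genes tested, and Grik5 was below (3.12%, against 6.0042%). Gria2 passed with an offset of 64 (adjusted p = 0.0461) and without the OS array of rat 1 (0.0475), Gabbr2 without the OD array of rat 2 (0.0265) and Grm4 without the OD array of rat 3 (0.0408).

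Proteins that anchor, transport or assist these receptors were measured by 40 of 45 listed genes, of which 26 were tested and 0 passed. At an unadjusted p under 0.05 there were 3 of 26 (11.5%), against 6.94% of all genes tested. Means were lower in OS for 18 and higher for 8, against 4612 lower and 3982 higher of all 8594 genes tested. Their median difference was -0.60, against -0.07 over all genes tested. Olfm1, a secreted protein found with AMPA receptors, gave 2489, 3339 and 4512 in OS, against 15946, 3282 and 22124 in OD, at -1.65 ± 1.46 (adjusted p = 0.356). Nptxr, the neuronal pentraxin receptor that clusters AMPA receptors, gave 695, 788 and 1144 in OS, against 2255, 1574 and 4091 in OD. Its eyes did not overlap and all 6 values exceeded the limit, at -1.49 ± 0.45 (adjusted p = 0.503). Lower in OS in 3 of 3 rats were 5 of the 26, against 15.6% of all genes tested: Nptxr, Shank3, Dlgap1, Nsg1 and Pick1. The last 3 had -0.62 ± 0.38, -0.64 ± 0.06 and -0.77 ± 0.37. Higher in 3 of 3 were 3 of the 26, against 13.1%: Homer1, Homer3 and Cnih2, at 0.64 ± 0.48, 1.66 ± 1.16 and 0.55 ± 0.46. Homer3, a postsynaptic adaptor of metabotropic glutamate receptors, had OS values all above its OD values, with 2 of 3 OS and 0 of 3 OD arrays above the limit. It passed the brightness filter only through OS, with mean log2 signals of 8.99 in OS and 7.34 in OD. Homer1, Homer3, Cnih2, Dlgap1, Nsg1 and Pick1 were picked after their values were seen. Olfm1, Nptxr, Shank1 and Shank3 were picked by their smallest p. The postsynaptic scaffolds Shank1 and Shank3 had -0.98 ± 1.23 and -1.30 ± 1.49 (adjusted p = 0.705 and 0.783).

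Marker sums and RNA controls were compared between the eyes in the same way. Summed over 11 ganglion cell markers, intensity ran from 11644 to 17229 on OS arrays and from 18106 to 28393 on OD arrays, without overlap, and 9 of the 10 markers tested were lower in OS. Over 11 amacrine markers it ran from 13032 to 24643 in OS and from 28008 to 74087 in OD, with Chat and Tfap2a above the limit on 0 of 6 arrays, but of the 7 tested only 4 were lower and 3 were higher in OS. Over 7 bipolar markers it ran from 15060 to 62097 in OS and from 9192 to 30529 in OD, and all 5 tested were higher in OS. Of all 8594 genes tested, 4612 were lower and 3982 higher in OS. Otx2 made up most of each bipolar sum, up to 59255 on the OS array of rat 3. Isl1 was in both the ganglion cell and the bipolar list. Whether ganglion cells also express other genes of the amacrine and bipolar lists was not tested. These bipolar sums overlapped, as did those of horizontal cell, photoreceptor, glial and microglial markers. For the beta-actin control, log2 of the 3' over the 5' signal differed by 1.40 ± 0.58 (OS minus OD, SD, n = 3 rats, positive in all 3). That of the Gapdh control differed by -0.59 ± 2.08 and was positive in 2 of 3 rats. Its highest value, 4.85, was on the OD array of rat 3. The part of these measures in the receptor differences was not tested.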

How the data were processed

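The deposited intensity values, 1 per probe set for each of 6 one-colour Affymetrix arrays, were used as the authors deposited them. The submitters' processing notes name GCOS as the software; its version is not given in the sources used here. RNA was isolated, linearly amplified and labelled with biotin, per the labels' protocols. Every array had a trimmed mean (2% off each tail) of 500.1, so values were taken as already scaled, and no further normalization was applied.

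Of 31099 probe sets, 57 controls were left out. The platform annotation gave 1 symbol for 20826, several for 436 and none for 9780; 20758 were matched to the reference gene table by identifier, and 0 symbols changed. After log2(value + 16), which understates changes of dim genes, the 15521 probe sets at or above the median were tested in limma 3.58.1 (R 4.3.3; rat as fixed block, intensity trend, two-sided, Benjamini-Hochberg threshold 0.05). With 2 residual against 19.4 prior degrees of freedom, p-values rest mostly on pooled variance and measure only the spread between these samples. The rat number in the titles pairs the eyes; deviations from group means correlated at 0.109, 0.122 and 0.326 within rats 1, 2 and 3 and at -0.197 to 0.104 between arrays of different rats. Arrays were grouped by eye because the labels do not give the treated side. The fit was tested on simulated data.

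Members and lists were chosen with earlier results of these data known. Named genes were tested receptor genes above the limit on at least 4 arrays, plus the 2 with the smallest p of each receptor group. The number of arrays limits the precision. Alternatives are given at the end.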

Additional observations from a re-analysis of the deposited data

Results flagged for a closer look

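The Gria3 probe set 1368691_at was not among the 15521 probe sets of the main comparison of eyes, because its mean fell below the brightness filter. It averaged 744.8 on the OD arrays and was above the background limit on all 3 of them, which drew attention to it. On the OS arrays it averaged 55.3 and was above the limit on none.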

How the results depend on the processing

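The alternatives concerned the offset, normalization, filter, trend, block, probe set summary, limit and rats left out; leaving out single arrays was added after the data were seen. No receptor gene passed between eyes in limma under any of them, with 0 to 5 at an unadjusted p under 0.05. Between eyes, 2 probe sets passed; this became 0 after quantile normalization, with an offset of 1, with a filter at the 75th percentile, without the intensity trend, with no replicate block and with a random replicate block. It was 9 with an offset of 64, 9 with no filter, and between 18 and 59 when a rat was omitted. The median receptor difference of -0.26 became -0.37 after quantile normalization, -0.38 at offset 1, -0.16 at offset 64, -0.09 with no filter, -0.63 with the 75th percentile filter (11 genes) and -0.15 with probe sets averaged; it ran from -0.63 to 0.06 with 1 rat left out. With the no replicate block fit it was again -0.26, and the replicate block changed no receptor call. Between rats, the count of 390 probe sets was 237 after quantile normalization, 152 with the 75th percentile filter, 0 without the trend, and 328 to 640 when single arrays were omitted. The count of 0 receptor genes was 1 with an offset of 64 and 0 to 1 with 1 array left out. The count of 2 receptor genes above the limit on all arrays was 1 with the highest control as limit, 6 with the 75th percentile of controls, and between 2 and 7 when a rat was omitted (7 without rat 2, 5 without rat 3). Of 26 named genes, 14 kept the sign of their difference under every alternative that tested them. Leaving out 1 rat reversed the others, with ranges of -2.28 to 0.51 for Chrna5, -0.40 to 1.07 for Gabbr1, -1.03 to 0.20 for Gabrb1, -0.0429 to 0.63 for Gabrr1, -0.96 to 0.0021 for Gabrr2, -0.26 to 0.24 for Gria4, -0.51 to 0.69 for Grik5, -0.63 to 0.98 for Grin2a, -0.0893 to 0.82 for Grin2c, -0.69 to 0.22 for Grm2, -0.74 to 0.81 for Grm6 and -1.40 to 0.33 for Grm8. Grik5 was also 0.0321 at offset 1 and Grm8 0.0693 with probe sets averaged. Without 1 rat, differences that kept their sign moved by over 1.5 times in Gria2 (-0.28 without rat 2), Glrb (-0.27 without rat 2), Gabre (-0.50 without rat 1), Chrnb4 (0.34 without rat 3), Gabrd (-0.49 without rat 3) and Gabra6 (1.06 without rat 2), as well as in Grik2, Gria3, Grm4 and Gabbr2. The causes of these changes were not tested.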

Other observations

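Several receptor genes lie next to each other in the RefSeq gene order (assembly GRCr8), with no protein-coding gene between them. Of the 3 such pairs with both genes tested, Gabra6 and Gabrb2 had differences of 1.62 and -0.60 (log2, OS minus OD), Gabrr2 and Gabrr1 had -0.60 and 0.19, so these ran opposite ways, and Gria2 and Glrb, next to each other but of different families, had -0.81 and -1.04. In the nicotinic cluster, Chrna5 had -0.78 and Chrnb4 had 1.09, with Chrna3 between them at 1.16 and too dim to test. These are values without a test.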
